A study of Mus musculus and Rattus norvegicus with 37 samples.

Results

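The 10 genes described here are textbook transcriptional targets of the tumor suppressor p53, namely Cdkn1a, Mdm2, Bax, Bbc3, Ccng1, Phlda3, Sesn1, Sesn2, Trp53inp1 and Eda2r. The list was made with earlier results of these data known, and its genes were looked up by symbol in 4 tables of liver RNA-seq values, 1 for each comparison. All 10 were among the 15811 genes tested in one mouse table and the 15885 genes tested in the other. For the rats, 8 of the 10 are listed under these symbols (Bbc3 and Trp53inp1 are not), and 7 passed the minimum level among 8633 and 8405 genes tested.

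The study used locked nucleic acid (LNA) inhibitors, chemically stabilized antisense oligonucleotides, to block the microRNA family miR-29 in mice, and it profiled liver from 21 mice and 16 rats. The mice were female C57BL/6J, received 1 subcutaneous injection of either LNA29 (inhibitors of miR-29a and of miR-29b/c at 20 mg/kg each) or saline, and gave liver in the fed state at day 7. The first mouse table (WT/Floxed) pools wild-type (WT) mice of 9 to 11 weeks with floxed mice of 15 to 20 weeks, the floxed animals being littermates of the liver-specific Sirt1 knockouts (4 WT and 4 floxed with LNA29, 3 WT and 2 floxed with saline). The second holds mice labelled L-Sirt1 KO, of 15 to 20 weeks, with 4 per treatment, and the authors had already removed 1 floxed saline mouse as an outlier. The rats were male Zucker rats: 4 fatty (ZFR), which are homozygous for the leptin receptor fa allele, against 4 lean (ZLR) at 5.5 months, and, at 3 months, 4 ZFR given the branched-chain α-keto acid dehydrogenase kinase inhibitor BT2 (20 mg/kg daily for 1 week) against 4 given vehicle.

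The p53 protein is a transcription factor that is kept low by Mdm2, which marks it for degradation, and that accumulates after DNA damage and other stress. Its targets include Cdkn1a, which encodes the cell cycle inhibitor p21, the pro-apoptotic Bcl-2 family genes Bax and Bbc3, and genes that restrain growth signalling or reactive oxygen species. MiR-29 is known to act on this circuit through regulators of p53, among them the p53 phosphatase Ppm1d, the GTPase Cdc42 and the kinase subunit Pik3r1. Sirt1, a NAD-dependent deacetylase, has p53 among its substrates. In liver, Cdkn1a also follows the circadian clock and feeding, and several of the 10 genes are shared with the FoxO and integrated stress response programs.

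Values are counts normalized by the authors within each table, called normalized counts here, and differences are given as log2 fold changes (log2FC) of the value plus 1 with the standard error (SE). In mice a gene was called when p was under 0.05, the adjusted p under 0.2, the mean above 50 normalized counts and the fold change above 1.2, which are the study's own criteria. In rats it was called at an adjusted p under 0.05. Mouse libraries held 42.6 to 77.9 M estimated reads, so that 1 read was worth at most 1.37 normalized counts, whereas the rat libraries ranged from 0.185 to 57.2 M and 1 read was worth up to 10.5 normalized counts. The listed hepatocyte markers (6 in mice, 5 in rats) summed to at least 168126 normalized counts in every library. Sirt1 ranged from 535 to 617 normalized counts in the mice labelled L-Sirt1 KO and from 493 to 699 in the WT/Floxed mice, which were normalized separately. The deposited Sirt1 values thus do not separate the knockout label from the other mice, and a level summed over all exons cannot show the loss of a single exon. The paper measured hepatic Sirt1 in both groups by RT-qPCR, which was not rechecked here. In bulk liver, fewer cells of a type and less RNA per cell cannot be told apart.

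The mature sequences of the miR-29 family are shown first because the inhibitors act on them and because their shared seed (bases 2 to 8, in capitals) defines the sites looked for in the 10 genes. They were taken from RefSeq on GRCm38.p6. MiR-29a-3p lies at chr6:31062673-31062694 (minus strand), miR-29b-3p at chr6:31063025-31063047 (minus strand) and chr1:195037091-195037113 (plus strand), and miR-29c-3p at chr1:195037600-195037621 (plus strand).
miR-29a-3p: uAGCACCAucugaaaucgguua
miR-29b-3p: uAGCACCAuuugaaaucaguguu
miR-29c-3p: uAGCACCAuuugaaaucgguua

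The complement of the seed, TGGTGCT, was searched on the transcribed strand of the longest annotated 3′ UTR of each gene. It was found in 4 of the 10 genes (40%), against 2755 of 20998 coding genes with a 3′ UTR (13.1%), with a median 3′ UTR length of 1334 bases for the 10 genes and 962 bases over all. Cdkn1a, Trp53inp1 and Eda2r hold 1 match each and Bbc3 holds 2, while Mdm2, Bax, Ccng1, Phlda3, Sesn1 and Sesn2 hold none. Each match is shown with its flanks (GRCm38, 30 bases, match in capitals), since these are the places in the searched 3′ UTRs that the full miR-29 seed can pair with. The Cdkn1a site is at chr17:29100683-29100712 (plus strand), those of Bbc3 at chr7:16317539-16317568 and chr7:16317624-16317653 (plus strand), that of Trp53inp1 at chr4:11171230-11171259 (plus strand) and that of Eda2r at chrX:97336640-97336669 (minus strand). Of the 14 circuit genes listed for comparison, Ppm1d, Sirt1, Cdc42 and Pik3r1 hold a match, and the Ppm1d site, at chr11:85346960-85346989 (plus strand), is shown because Ppm1d was the only circuit gene called in any comparison. A match is a description of letters and not a measured binding site.
Cdkn1a: gaccccaaagcTGGTGCTcaataaatactt
Bbc3, first: ggaaaggctgcTGGTGCTggctgcccgttc
Bbc3, second: cctcaggccccTGGTGCTtccccccctcct
Trp53inp1: ttcttcagggtTGGTGCTaatgaggctaga
Eda2r: cagggaccattTGGTGCTttcttggcttag
Ppm1d: tcaataacaaaTGGTGCTgctaacacccaa

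P53 binds a pair of 10-base motifs, each with a fixed C and G at its core, that may be parted by a spacer. The p53 response element was searched in promoter windows (250 bases before to 50 after the start, RefSeq, GRCm38.p6), with at most 2 mismatches over both motifs, a spacer of 0 to 13 bases and the core C and G intact. Such a match was found in 1342 of 32851 promoter windows (4.09%) and in 4 of the 13 windows of the 9 members that had one. Those 4 are shown, with the motifs in capitals, because p53 is known to act on its targets through such elements. Each window is shown by its match with the fewest mismatches and spacer bases together. A match without mismatch but with a spacer, not shown, was in 1 of the 13 member windows, beside 24 of all 32851 (0.0731%). The match shown for Cdkn1a was at chr17:29090920-29090955 (plus strand, 1 mismatch), before the upstream of its 2 annotated starts, which lie 2790 bases apart. Ccng1 held one at chr11:40755454-40755489 (minus strand, 1 mismatch), Bax at chr7:45467071-45467107 (minus strand, 2 mismatches, spacer of 1 base) and Sesn1 at chr10:41887245-41887283 (plus strand, 2 mismatches, spacer of 3 bases). No match says only that these letters are not in the window, since elements further from the start or in an intron were not searched.
Cdkn1a: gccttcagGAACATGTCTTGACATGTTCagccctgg
Ccng1: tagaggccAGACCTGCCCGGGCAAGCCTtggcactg
Bax: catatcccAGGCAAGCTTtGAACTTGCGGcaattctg
Sesn1: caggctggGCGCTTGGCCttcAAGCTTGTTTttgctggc

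Per kilobase of exon, the scale on which genes can be compared, the level of the 10 genes in WT/Floxed saline livers spanned more than 2 orders of magnitude. The highest medians were those of Trp53inp1 (812 normalized counts per kb), Ccng1 (618) and Bax (600). A middle group held Bbc3 (273), Mdm2 (242), Cdkn1a (227), Sesn1 (223) and Sesn2 (155). Phlda3 (40.9) and Eda2r (6.77) were lowest. With LNA29 the median of Cdkn1a was 599 normalized counts per kb, close to those of Ccng1 (610) and Trp53inp1 (601).

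In WT/Floxed mice Cdkn1a, Bax and Phlda3 rose with LNA29, so that 3 of the 10 genes were called, all of them higher, beside 4.35% of all genes tested called in either direction and 2.42% called higher. The other 7 genes did not pass, Eda2r being the nearest. Over the 10 genes the median log2FC was 0.12 and 5 of the 10 values were positive, while the median over all genes tested was 0.00. In none of the 10 did the treated and saline groups separate completely, which 1.51% of all genes did.

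Mdm2, the ubiquitin ligase that degrades p53 and closes the feedback loop, did not pass the test in WT/Floxed mice (log2FC −0.04, SE 0.11, adjusted p = 0.910 by limma). It ranged from 936 to 1386 normalized counts with LNA29 and from 1040 to 1317 with saline, and the 95% interval of its log2FC ran from −0.27 to 0.18. Ccng1, which encodes cyclin G1 and is among the most abundant of the 10, had a log2FC of −0.05 (SE 0.09, adjusted p = 0.881 by limma), with 1720 to 2523 normalized counts after LNA29 and 2063 to 2456 after saline. Within the LNA29 group these 2 genes varied least of the 10, with coefficients of variation of 13.9% and 11.5%.

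Cdkn1a, the gene for p21 (chr17:29090976-29100727, plus strand, GRCm38), was at 807, 1618 and 1172 normalized counts in the 3 WT saline mice and at 445 and 344 in the 2 floxed saline mice. With LNA29 the lowest of the 8 mice was at 657, the median was 2127 and the highest was 4378. All but 2 of the 8 LNA29 mice were above the highest saline mouse, and both the lowest and the highest LNA29 values were those of WT mice. The log2FC was 1.44 (SE 0.42, adjusted p = 0.125 by limma, n = 8 and 5), and the exact permutation p was 0.014, where the smallest possible is 0.000777. With each mouse left out in turn, the Cdkn1a call was kept in 7 of 13 fits and lost without saline replicate 1, 2 or 5 or LNA29 replicate 5, 7 or 8, with a highest adjusted p of 0.250 and a log2FC between 1.16 and 1.72. Within the 3 flow cells the log2 difference was 1.07, 0.79 and 2.04, from 3 LNA29 against 2 saline mice, 3 against 1 and 2 against 2.

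Of the 2 apoptosis genes, Bax was called in these mice and Bbc3 was not. Bax, which encodes a pore-forming protein of the mitochondrial outer membrane (chr7:45461697-45466898, minus strand), was at 946, 1149, 680, 810 and 1174 normalized counts in the 5 saline mice. The LNA29 mice ranged from 1162 to 1772 with a median of 1258, and 7 of the 8 lay above every saline mouse. The log2FC of Bax was 0.53 (SE 0.14, adjusted p = 0.0898 by limma, exact permutation p = 0.00155), and it was called in 12 of 13 fits with 1 mouse left out, the exception being saline replicate 4 (adjusted p = 0.203 by limma). Within the flow cells the log2 difference of Bax was 0.37, 1.00 and 0.44. The second value sets 3 LNA29 mice of both backgrounds against 1 WT saline mouse, so background is mixed into it. Bbc3, which encodes the BH3-only protein PUMA (chr7:16308393-16318205, plus strand), was at 580, 966, 433, 377 and 1304 normalized counts with saline. Its LNA29 values ran from 384 over a median of 559 to 1217, all within the saline range, and the log2FC of −0.11 (SE 0.32, adjusted p = 0.928 by limma) did not pass.

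Phlda3, whose product competes with Akt for membrane lipids (chr1:135766119-135769136, plus strand), was at 60.1, 63.8, 61.0, 101 and 75.2 normalized counts in the saline livers. The LNA29 livers ran from 82.7 to 138 with a median of 101, and 1 saline mouse lay within them. Its log2FC was 0.57 (SE 0.17, adjusted p = 0.124 by limma, exact permutation p = 0.00932), and the call was kept in 8 of 13 fits with 1 mouse left out, up to an adjusted p of 0.260. It was lost without the minimum level, where more genes were tested (adjusted p = 0.239 by limma). Within the flow cells it differed by 0.71, 0.98 and 0.07 (log2), the second value resting on 1 saline mouse. The sestrins, which inhibit mTORC1 under stress, did not pass the test: the log2FC was −0.05 (SE 0.10) for Sesn1 and 0.28 (SE 0.21, adjusted p = 0.636 by limma) for Sesn2.

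Trp53inp1, a p53-induced gene of apoptosis and autophagy, had the highest level per kilobase in saline WT/Floxed livers and did not pass (log2FC −0.08, SE 0.25, adjusted p = 0.931 by limma). Its saline values fell into 5260, 6371 and 5966 normalized counts in the WT mice and 2244 and 2441 in the floxed mice, a split considered further with the backgrounds. Eda2r, an X-linked receptor of the tumor necrosis factor family (chrX:97333840-97377216, minus strand), was at 31.8, 39.9, 96.9, 44.2 and 17.6 normalized counts with saline and at 45.9 to 162 with LNA29 (median 84.3). The log2FC of 1.03 (SE 0.38) missed the threshold with an adjusted p of 0.234 by limma, although the unadjusted exact permutation p was 0.0342. It passed when background was a covariate (adjusted p = 0.181 by limma) and when saline replicate 3, the highest saline mouse, was left out.

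**Figure D1:**
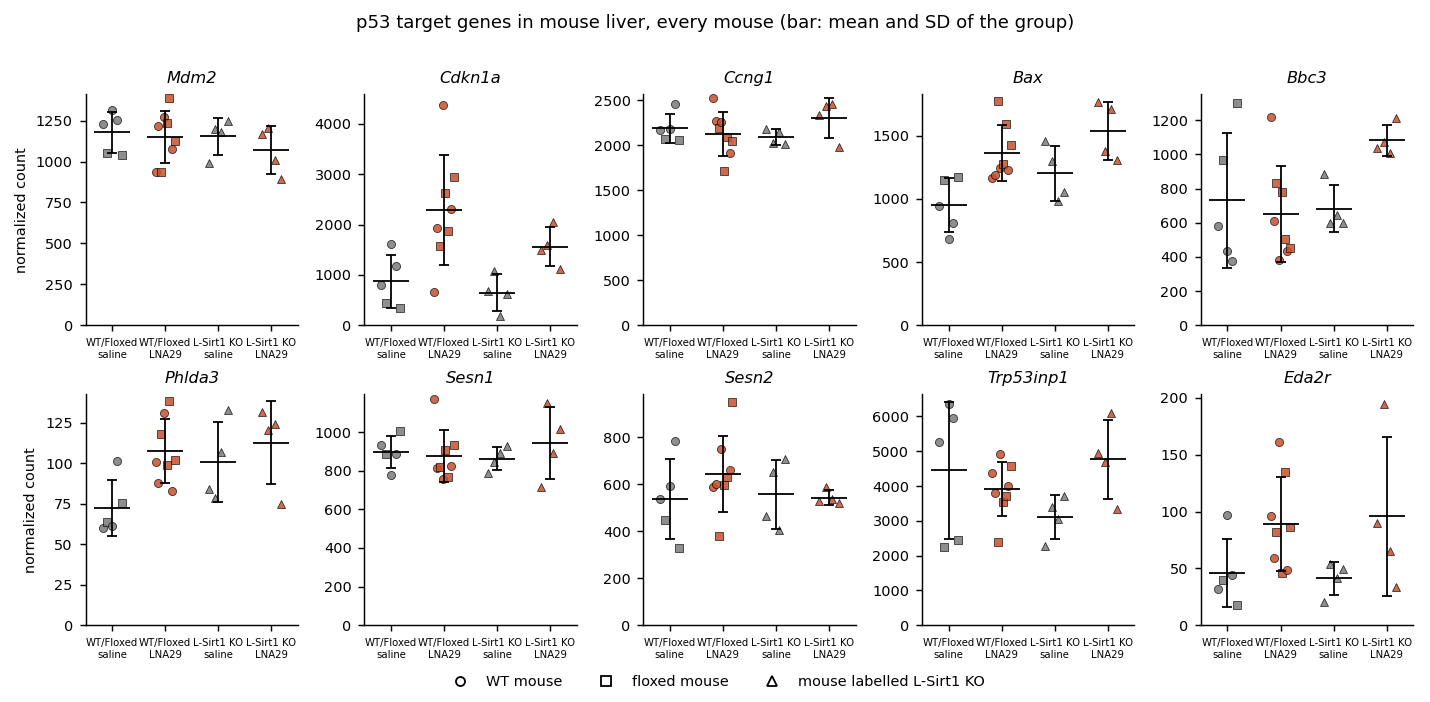
Normalized counts of the 10 p53 target genes in every mouse, by treatment and table, with the group mean and SD as bars (circles, WT; squares, floxed; triangles, labelled L-Sirt1 KO). Most LNA29 mice lie above saline for Cdkn1a and Bax in the WT/Floxed table, and for Cdkn1a and Bbc3 the mice labelled L-Sirt1 KO form separate groups.

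Bbc3 alone of the 10 genes was called in the mice labelled L-Sirt1 KO, where it was higher with LNA29 (1 of 10), beside 1.87% of all genes tested called in either direction and 1.19% called higher. Of the 10 log2FC values 9 were positive, and their median was 0.26. The treated and saline groups separated for 2 of the 10, Bbc3 and Cdkn1a, beside 6.95% of all genes.

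Bbc3 was at 1036, 1070, 1008 and 1214 normalized counts with LNA29 and at 886, 599, 647 and 599 with saline. All 4 treated mice were above all 4 saline mice. The log2FC was 0.68 (SE 0.14, adjusted p = 0.0999 by limma), and the exact permutation p was 0.0286, the smallest that 4 against 4 can give. With each mouse left out in turn, Bbc3 was called in 3 of 8 fits, the highest adjusted p being 0.288, and it was lost with the flow cell as a covariate (adjusted p = 0.234 by limma). Within the flow cells the log2 difference of Bbc3 was 0.25, 0.75 and 0.96, from 2 LNA29 mice against 1 saline mouse, 1 against 1 and 1 against 2.

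Cdkn1a in the same mice was at 1496, 1598, 2045 and 1115 normalized counts with LNA29 and at 683, 1082, 186 and 629 with saline. The groups did not overlap, but the highest saline mouse and the lowest LNA29 mouse were close. With a log2FC of 1.49 (SE 0.45, exact permutation p = 0.0286) the gene was not called, since the adjusted p by limma was 0.263 over all genes. It was called when libraries were weighted by quality (adjusted p = 0.186) and without saline replicate 2 or 3. The size of the difference was near that in WT/Floxed mice, and the interval of the log2FC ran from 0.47 to 2.51.

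Of the remaining members, Trp53inp1 had the largest difference relative to its error in these mice. It was at 4951, 4692, 6100 and 3341 normalized counts with LNA29 and at 2276, 3406, 3040 and 3727 with saline, so that 1 treated mouse lay within the saline range. Its log2FC was 0.61 (SE 0.20, adjusted p = 0.288 by limma, exact permutation p = 0.0857) and was not called. Bax was at 1764, 1375, 1707 and 1310 against 1460, 1297, 986 and 1057 normalized counts, with a log2FC of 0.36 (SE 0.15, adjusted p = 0.410 by limma), and the groups overlapped. For Eda2r the LNA29 mice were at 89.5, 194, 65.5 and 33.5 and the saline mice at 20.9, 53.6, 41.3 and 49.1 normalized counts, which gave a log2FC of 1.00 (SE 0.50, adjusted p = 0.502 by limma). Mdm2 (−0.11), Sesn2 (0.00), Sesn1 (0.11), Ccng1 (0.14) and Phlda3 (0.16) had smaller log2FC values and did not pass.

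**Figure D2:**
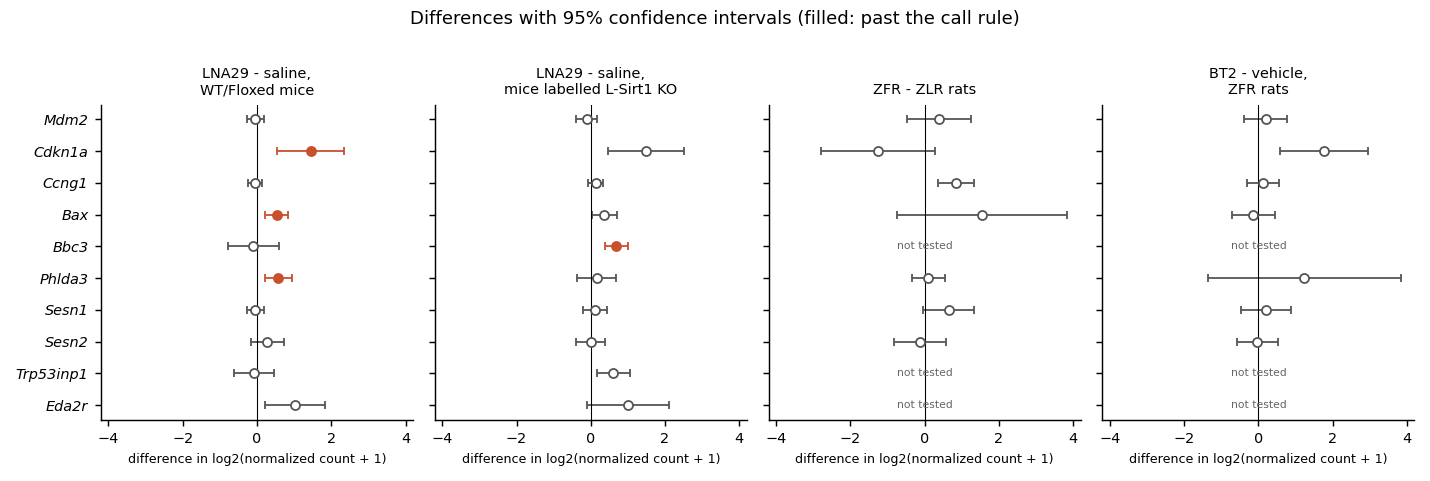
Log2 fold changes of the p53 target genes in each comparison, with 95% intervals from limma and filled points for called genes. In mice Cdkn1a has the largest values (1.44 and 1.49), and Mdm2, Ccng1 and Sesn1 lie near 0 in both mouse tables.

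Whether the response to LNA29 differed between the mice labelled L-Sirt1 KO and the WT/Floxed mice was tested directly. No member passed at an adjusted p under 0.2, which 7 of 15601 genes did (0.0449%). The largest differences in response (KO minus WT/Floxed) were 0.79 for Bbc3 (SE 0.44, adjusted p = 0.616 by limma) and 0.69 for Trp53inp1 (SE 0.38, adjusted p = 0.609), and that of Cdkn1a was 0.05 (SE 0.69, adjusted p = 0.995). When the comparison was restricted to the floxed mice, the littermates of similar age, the difference of Bbc3 was 1.53 with an adjusted p of 0.134 by limma, the only member of 10 to pass, beside 69 genes in all. That value rests on 2 floxed saline mice.

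The WT/Floxed table itself holds mice of 2 backgrounds that also differ in age, and background, age and source colony or site cannot be told apart. The paper names the National Health Institutes and NYU Winthrop Hospital as sites of the LNA work, without assigning mice to them. With treatment in the model, 2 of the 10 genes differed between backgrounds, beside 14.7% of all genes tested. Bax was higher in floxed mice (log2 difference 0.40, SE 0.09, adjusted p = 0.0288 by limma) and Trp53inp1 was lower (−0.68, SE 0.18, adjusted p = 0.0441). Bbc3 (0.53, adjusted p = 0.277) and Cdkn1a (−0.45, adjusted p = 0.514) did not pass.

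The values within each background are given next. Treated and control mice were fully separated for 2 of the 10 genes among WT mice, beside 9.6% of all genes tested, and for 5 of the 10 among floxed mice, beside 25.8% of all genes. The log2 difference of Cdkn1a was 0.72 in WT mice (exact permutation p = 0.343), where the lowest LNA29 mouse was below all saline mice, and 2.48 in floxed mice, where 4 LNA29 mice at 1569 to 2941 normalized counts stood against 2 saline mice at 344 and 445 (exact permutation p = 0.0667, the smallest that 4 against 2 allow). The log2 difference of Bax was 0.58 in WT (1162 to 1244 against 680 to 946 normalized counts, exact permutation p = 0.0286) and 0.37 in floxed mice (1272 to 1772 against 1149 and 1174). Bax was the 1 gene of the 10 without overlap in both backgrounds. For Bbc3 the floxed LNA29 mice, at 451 to 831 normalized counts, were all below the floxed saline mice at 966 and 1304 (log2 difference −0.85), whereas the WT difference was 0.38. Trp53inp1 was lower with LNA29 in all 4 WT mice (3793 to 4911 against 5260 to 6371 normalized counts, −0.46, exact permutation p = 0.0571) and was 0.56 higher on average in floxed mice, with overlap. Phlda3 differed by 0.46 and 0.70 and Eda2r by 0.66 and 1.58 in WT and floxed mice.

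The difference in response between floxed and WT mice was then tested in the same table, a test chosen after these values were seen. It was 1.02 for Trp53inp1 (adjusted p = 0.525 by limma), 1.76 for Cdkn1a (adjusted p = 0.537) and −1.23 for Bbc3 (adjusted p = 0.539). No member passed, and 1 of 15811 genes did (0.00632%).

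**Figure D3:**
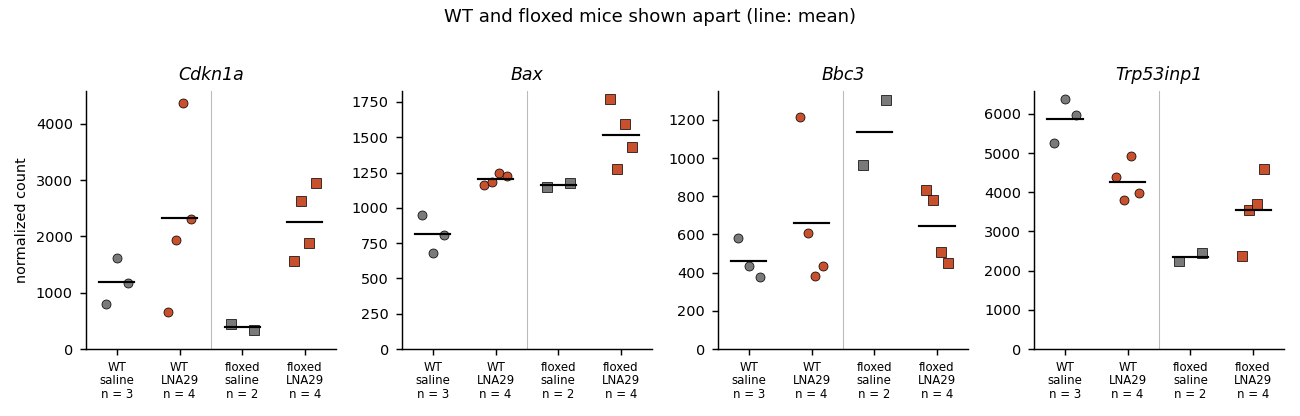
Normalized counts of Cdkn1a, Bax, Bbc3 and Trp53inp1 in WT and floxed mice by treatment, 1 point per mouse with the mean as a line. Floxed saline mice, at 344 and 445 for Cdkn1a and 2244 and 2441 for Trp53inp1, sit below the 3 WT saline mice, and for Bbc3 they sit above them.

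Trp53 itself was not called in either mouse table, with log2FC values of 0.09 (SE 0.09) in WT/Floxed mice and −0.05 (SE 0.12) in mice labelled L-Sirt1 KO. Among the 13 circuit genes tested, which regulate p53, 1 was called in WT/Floxed mice, beside 4.35% of all genes tested. The called gene was Ppm1d, the phosphatase that dampens p53 signalling and that carries a seed match shown above, with a log2FC of 0.40 (SE 0.11, adjusted p = 0.112 by limma). The other circuit genes with a match were not called, with log2FC values of 0.04 (Sirt1), 0.05 (Cdc42) and −0.17 (Pik3r1). Sirt1, Cdc42 and Pik3r1 were at −0.06, 0.05 and −0.22 in mice labelled L-Sirt1 KO. In mice labelled L-Sirt1 KO none of the 13 was called, beside 1.87% of all genes tested, and Ppm1d had a log2FC of 0.09 (SE 0.15). The largest value there was that of the checkpoint kinase Chek1 (0.82, adjusted p = 0.557 by limma).

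Outside the 10 members, 30 other p53 targets were tested in WT/Floxed mice and 2 were called, both higher, beside 2.42% of all genes called higher. They were Polk, a translesion DNA polymerase (log2FC 0.33, adjusted p = 0.150 by limma), and Plk2, a polo-like kinase (0.31, adjusted p = 0.191). The median log2FC of these 30 was 0.06. Among 31 tested in mice labelled L-Sirt1 KO, Tap1, a subunit of the peptide transporter of antigen presentation, was higher (0.49, adjusted p = 0.0597) and Pltp, the phospholipid transfer protein, was lower (−0.88, adjusted p = 0.0794), with a median of 0.02, beside 1.87% of all genes called in either direction. Most of this wider set did not pass in either table, but neither did most of all genes tested (4.35% and 1.87% called in either direction).

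Genes that the p53-p21 axis is known to repress in dividing cells did not fall. All 15 tested had a positive log2FC in WT/Floxed mice (median 0.41, largest Cdc20 at 0.89) with none called, and all 15 were positive in mice labelled L-Sirt1 KO (median 0.82), where 2 were called higher, Mcm5 having the largest value (1.203, adjusted p = 0.0645 by limma). Their summed level in mice labelled L-Sirt1 KO was 1236 to 2171 normalized counts with LNA29 and 911 to 990 with saline. In WT/Floxed mice the sums overlapped, at 818 to 2679 with LNA29 and 657 to 1375 with saline. Of 8 FoxO targets none was called in WT/Floxed mice (median 0.53) and 3 were higher in mice labelled L-Sirt1 KO (median 0.52), with Igfbp1 largest in both (1.43, not called, and 1.19, called). Of 12 integrated stress response genes 2 were higher in WT/Floxed mice (median 0.24) and 1 was lower in mice labelled L-Sirt1 KO (median −0.21), the latter being Atf5 (−0.69, adjusted p = 0.1999 by limma). Fgf21 had the largest value in each table (1.90 and −2.51), with an adjusted p by limma of 0.171, called, and of 0.247, not called. The 14 clock genes had 1 call, Nfil3 (0.36), in WT/Floxed mice (median −0.06) and none in mice labelled L-Sirt1 KO (median −0.20), and Dbp had the largest value in both (−1.12 and −3.04) without being called. How far these programs bear on Cdkn1a was not tested.

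Some markers of liver cell types differed in the same livers. Of 8 stellate cell markers 2 were higher in each mouse table, Col1a1 and Col3a1, which are themselves known miR-29 targets. The summed stellate markers ran from 20537 to 27364 normalized counts with LNA29 and from 16423 to 20207 with saline in WT/Floxed mice, and from 25388 to 29111 and from 19192 to 23004 in mice labelled L-Sirt1 KO. Both collagens are in these sums, and none of the 6 other stellate markers was called. Their log2FC values in WT/Floxed mice and mice labelled L-Sirt1 KO were 0.07 and 0.02 (Reln), −0.01 and 0.11 (Lrat), and 0.09 and −0.02 (Dcn). Those of the rest were 0.07 and 0.28 (Des), 0.26 and 0.18 (Pdgfrb), and 0.54 and 1.15 (Acta2). Of 8 macrophage markers none was called in WT/Floxed mice and 2, Vsig4 and Clec4f, were lower in mice labelled L-Sirt1 KO, with sums of 6810 to 33375 against 12233 to 20267 and of 11896 to 14824 against 14824 to 17719. Of 6 endothelial markers Lyve1 was lower in both tables, and of 6 hepatocyte markers Apoa1 was higher in WT/Floxed mice (0.51). No cholangiocyte, lymphocyte or red blood cell marker was called in mice. Their part in the differences of the p53 targets was not tested.

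**Figure D4:**
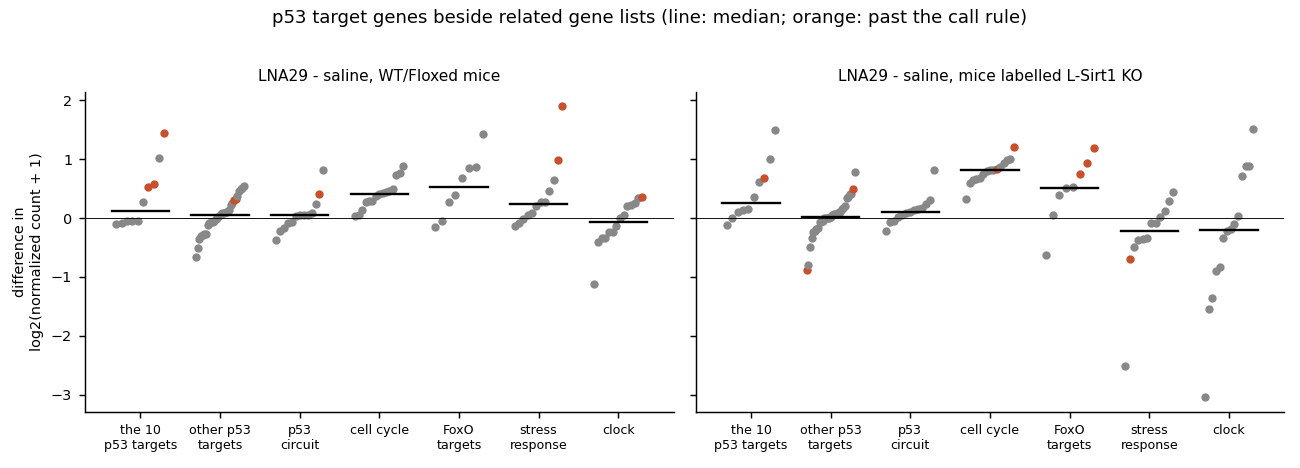
Log2 fold changes (LNA29 against saline) of the members of each gene list in both mouse tables, 1 point per gene, orange where called, with the list median as a line. The 10 members have medians of 0.12 and 0.26, and the cell cycle genes lie above 0 in both tables.

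Across the 21 mice, the genes whose deviations from their group means were most like those of Cdkn1a were Mta2 (Pearson r = 0.905), Ttpal (0.904) and Rab35 (0.903), out of 12759 genes compared. Among the members the closest were Sesn2 (0.664), Trp53inp1 (0.54) and Mdm2 (0.509), and the farthest were Bbc3 (−0.728) and Sesn1 (−0.495). Bax (−0.118) and Phlda3 (0.034), which were called together with Cdkn1a, had values near 0. These values are a description over mice that share flow cells and backgrounds.

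In Zucker rats no member was called between ZFR and ZLR, beside 4.25% of all genes tested called in either direction and 1.8% called higher. Ccng1 came nearest. It was at 129, 159, 118 and 132 normalized counts in the 4 ZFR and at 112, 54.0, 76.6 and 64.0 in the 4 ZLR, so that the groups did not overlap, as held for 14.5% of all genes. The ZLR values of 76.6 and 64.0 rest on about 7.27 and 6.13 estimated reads. The log2FC of Ccng1 was 0.85 (SE 0.22, adjusted p = 0.0674 by limma, exact permutation p = 0.0286). It passed when libraries were weighted by quality (adjusted p = 0.00941) and without ZLR replicate 1 (adjusted p = 0.0155). In each of the 2 flow cells, with 2 ZFR against 2 ZLR, the log2 difference was 0.87 and 0.82.

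Cdkn1a was not called in that comparison, with 48.1, 64.6, 30.2 and 6.43 normalized counts in ZFR and 137, 33.3, 109 and 44.98 in ZLR (log2FC −1.25, SE 0.69, adjusted p = 0.405 by limma). The groups overlapped, and the values of 6.43, 109 and 44.98 rest on about 4.13, 10.3 and 4.31 estimated reads. Bax had a log2FC of 1.54 (SE 1.02, adjusted p = 0.486 by limma), with ZLR replicate 4, a shallow library, listed at 0, and the value without that library was 0.29. Sesn1 (0.65), Mdm2 (0.38), Phlda3 (0.10) and Sesn2 (−0.13) did not pass, the median over the 7 genes was 0.38 and that over all genes was 0.07. Eda2r was at or near 0 in all 16 rat libraries. Rat libraries list the ortholog of Trp53inp1 as Tp53inp1, which lies outside the symbols searched. The log2FC of Tp53inp1 between ZFR and ZLR was 1.58 (SE 0.91, adjusted p = 0.427 by limma). It too was listed at 0 in ZLR replicate 4, and within the flow cells the log2 difference was 0.67 and 2.49. After BT2 its log2FC was −0.95 (SE 0.62, adjusted p = 0.898 by limma).

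Of the other p53 targets 20 were tested in this comparison and 2 were called, beside the 4.25% of all genes. Btg2, an antiproliferative gene, was higher in ZFR (1.62, adjusted p = 0.0486 by limma) and Dcxr, a reductase of carbonyl compounds, was lower (−0.79, adjusted p = 0.0405). None of 8 circuit genes was called, the largest value being that of the kinase Atm (1.498, adjusted p = 0.466). Of 8 stellate markers 3 were higher in ZFR, with sums of 738 to 1132 normalized counts against 321 to 451 in ZLR. These sums include the collagen Col1a1, which had the largest value (4.16, adjusted p = 0.0223 by limma). Of the 8 log2FC values 6 were positive. The clock list had 4 genes higher and 2 lower among 13. The part of these markers and clock genes in the Ccng1 difference was not tested.

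After BT2 no gene of 8405 was called (0%). An unadjusted p under 0.05 by limma was found for 332 genes, fewer than that limit passes by chance alone. Cdkn1a was the member nearest to the threshold. It was at 64.4, 77.0, 54.1 and 60.9 normalized counts with BT2 and at 42.05, 38.7, 6.63 and 8.89 with vehicle. The groups did not overlap, as for 2.96% of all genes, but the vehicle values of 6.63 and 8.89 rest on about 7.23 and 0.861 estimated reads, the latter under the 3 reads taken as the limit of detection. Its log2FC was 1.77 (SE 0.53, p = 0.00711, adjusted p = 0.898 by limma) and its exact permutation p was 0.0286. Within the flow cells, with 2 BT2 against 2 vehicle rats in each, the log2 difference was 0.79 and 2.75. The values of Ccng1 (0.12), Bax (−0.14), Mdm2 (0.19), Sesn1 (0.21) and Sesn2 (−0.03) were smaller than their SE, and that of Phlda3 (1.24) turned to −0.29 without vehicle replicate 4, a shallow library listed at 0. Among 19 other p53 targets the largest value was that of the repair gene Xpc (1.36, adjusted p = 0.898), and among 6 circuit genes that of Mdm4 (0.84, adjusted p = 0.907).

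**Figure D5:**
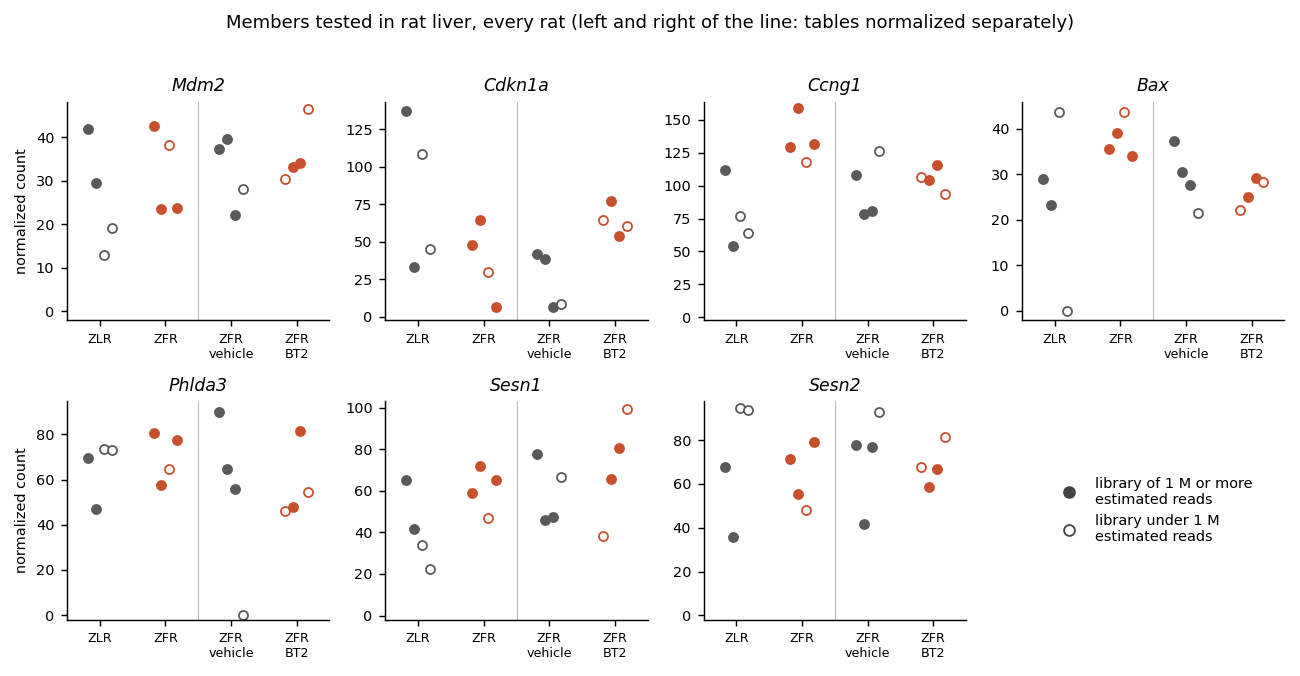
Normalized counts of the 7 p53 target genes tested in rats, 1 point per rat, by group and table, with open points for libraries under 1 M estimated reads. ZFR lie above ZLR for Ccng1 (118 to 159 against 54.0 to 112), and the vehicle rats are split for Cdkn1a into 38.7 and 42.05 against 6.63 and 8.89.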

How the data were processed

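Liver RNA-seq of 21 mice and 16 rats was deposited in 4 tables, for which the authors aligned reads to mm10 or rn6 with STAR, quantified them with Salmon and normalized each table with DESeq2. The libraries were poly(A)-selected, and the sources used here do not state that counting used strand. The deposited values are a signal, namely counts that the authors divided by size factors, and 68.1% to 89.4% of low values were whole reads (tolerance 0.02), so no count model was run. Depth was estimated from the smallest step of each library. Genes listed more than once under a symbol were left out (0.105% of the summed values in the WT/Floxed table, up to 2.17% in rats).

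Log2(value + 1) of genes with a table mean of at least 10 was fitted with limma 3.58.1 (R 4.3.3) with a mean-variance trend and Benjamini-Hochberg adjustment over all genes tested. Exact permutation tests (two-sided, over animals) were run for single members. P-values measure the spread between these animals. Groups came from the labels, and groups of 4 to 10 were checked for outliers. The scripts were tested on simulated data. Named genes were the 10 members, the called genes of the lists of other p53 targets and of the p53 circuit (at most 4, or the largest where none was called), the largest member of each other list, and the 3 genes most like Cdkn1a. Members and lists (integrated stress response, FoxO, cell cycle, clock and cell type markers) were chosen with earlier results of these data known. Replicate numbers were not taken to pair animals.

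Sequences and exons came from GENCODE vM21 and RefSeq (GRCm38). Cdkn1a, Bax, Sesn1 and Sesn2 each overlap 1 predicted gene, whose reads were not told apart. Alternatives were another pseudocount, minimum, scaling, weights, covariates, criteria, and leaving out libraries.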

Additional observations from a re-analysis of the deposited data

Results flagged for a closer look

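Of 68 groups of 4 to 10 animals tested, 6 held 1 animal far from the others of its group, and chance alone flags about 1 in 20 groups, or about 3 here. In WT/Floxed mice given LNA29, Sesn1 was highest in replicate 1, a WT mouse, at 1173 normalized counts, the next being 931. Trp53inp1 in the same group was lowest in replicate 3, a floxed mouse, at 2382, the next being 3538. Phlda3 was at 75.0 in LNA29 replicate 4 of the mice labelled L-Sirt1 KO, where the next lowest mouse was at 120. In rats Phlda3 was at 47.1 in ZLR replicate 2, one of the deeper libraries, with the next at 69.5. The other 2 flags are zeros in shallow rat libraries: Bax was listed at 0 in ZLR replicate 4, the next being 23.2, and Phlda3 was listed at 0 in vehicle replicate 4, the next being 55.9. No member passed the direct test of a genotype difference in the response to LNA29 over all 21 mice, and Bbc3 passed it when only floxed controls were used (1.53, adjusted p = 0.134 by limma).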

How the results depend on the processing

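Of 38 comparisons of a count of called members under other settings, 29 stayed within 1.5 times. Counts of 0 that stayed at 0 are among the 29, as under all 9 settings after BT2, and these say little about stability. In WT/Floxed mice the 3 calls became 2 without a minimum (Phlda3 was lost), 0 with a replicate block and 0 at an adjusted p under 0.05, and 1 to 3 with 1 mouse left out. The block is reported here alone because same-numbered animals did not deviate together throughout. The correlation of their deviations ran from −0.349 to 0.275 in mice and from 0.0327 to 0.138 between ZFR and ZLR. After BT2 it was −0.0395, 0.282, 0.135 and 0.117 for replicates 1 to 4. In mice labelled L-Sirt1 KO the 1 call became 2 with sample quality weights, 0 with flow cell as a covariate, 0 with a replicate block, 0 at an adjusted p under 0.05, and 0 to 2 with 1 mouse left out. Between ZFR and ZLR the 0 calls became 1 (Ccng1) with quality weights or under the mouse criteria, and 0 to 1 with 1 rat left out, and 0 with a replicate block. The genotype difference had 1 member past the limit with floxed mice only, and the WT and floxed backgrounds differed for 2 to 4 members with 1 mouse left out.

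Small log2FC values turned sign. Bbc3 in WT/Floxed mice became 0.037 with quality weights and 0.13 with the block (−0.30 to 0.14 with 1 mouse left out), and Trp53inp1 ran from −0.29 to 0.083. Sesn2 in mice labelled L-Sirt1 KO became −0.012 with TMM-type scaling and −0.13 with quality weights (−0.14 to 0.13). Between ZFR and ZLR, Sesn2 became 0.57 with quality weights, 0.44 with precision weights and 0.45 without libraries under 1 M estimated reads (−0.43 to 0.026), Mdm2 became −0.28 without those libraries and Phlda3 ran from −0.050 to 0.19. After BT2, Phlda3 became −0.24, −0.10 and −0.14 under those 3 settings (−0.29 to 1.88), and Sesn2 became 0.12 and 0.11 with the weights (−0.27 to 0.11). The cause was not tested.

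Counts over all genes moved more. In WT/Floxed mice the 688 calls became 396 without a minimum, 1308 with quality weights, 55 with the block, 216 at an adjusted p under 0.05 and 381 to 1006 with 1 mouse left out. In mice labelled L-Sirt1 KO the 297 became 160, 804, 145, 39 and 77 to 426 in the same order, and 103 with flow cell. Between ZFR and ZLR the 367 became 241 without a minimum, 238 with TMM-type scaling, 1169 with quality weights, 221 with the block, 707 under the mouse criteria, 1979 with precision weights and 225 to 379 with 1 rat left out. After BT2 at most 2 genes were called under any setting. The 7 genes of the genotype difference became 69 with floxed mice only, 1220 with quality weights and 0 to 233 with 1 mouse left out, an alternative chosen after seeing the data. Backgrounds differed for 1409 to 2751 genes. Scaling moved the median of all genes by between −0.0237 and 0.00377 (log2). In rats 3 reads were worth up to 31.6 normalized counts, so differences of members near that level were not detectable in the shallow libraries.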
